A study of Mus musculus with 6 samples.

Results

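The mouse genes Cldn2, Cldn3, Cldn4, Cldn7, Cldn8, Cldn12, Cldn15, Cldn23, Ocln and Tjp1 encode 8 claudins, occludin and the scaffold protein ZO-1 of epithelial tight junctions. They were taken by their platform gene symbols, each was read by 1 probe set, and they make up 10 of the 19505 genes measured. Expression was read with Affymetrix arrays in total RNA of small intestinal crypts from mice on a C57bl/6 background, in a study that asked whether lack of CSN8 disturbs antimicrobial peptide production. Cops8 codes for CSN8, a subunit of the COP9 signalosome, which trims NEDD8 from cullin ubiquitin ligases. The 3 CSN8fl/fl samples came from mice whose Cops8 alleles are floxed, and the 3 CSN8ΔIEC samples from mice in which, as the name says, the gene is lost from intestinal epithelial cells. Crypts were collected with EDTA after villi had been scraped away. In each genotype, replicates 1 and 2 were labelled female and 16 weeks old and replicate 3 male and 10 weeks old. The sources used here do not name the Cre line behind the deletion. The labels call the samples of a genotype biological replicates but do not say whether each came from a separate mouse, so the p-values reflect only how far these samples spread, which may be technical in part.

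Tight junctions seal the space between neighbouring epithelial cells and set which ions pass through it. Claudins are small proteins with 4 membrane spans that form the strands of the junction. Some claudins make pores for cations and water, and others tighten the barrier. Occludin is a further membrane protein of the strands, and ZO-1 ties strands to the actin cytoskeleton. In the small intestine claudin-2 is known from crypts, claudin-15 from crypts and villi, and several sealing claudins from more differentiated cells.

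The signals are log2 values, so that a difference of 1 is a 2-fold change. One library, CSN8fl/fl replicate 3, differed most from the rest. Its correlations with the other 5 libraries over all probe sets were 0.976 to 0.986, while each of the other 5 had a correlation of 0.992 or 0.993 with at least 1 library. The Y-linked genes Eif2s3y, Kdm5d and Uty went against the sex labels in every library, with signals of at least 7.496 in the replicates labelled female and at most 4.06 in those labelled male. The labels are therefore used here only as names for replicates 1 and 2 against replicate 3. Cops8 was at 8.26, 8.22 and 8.10 in CSN8fl/fl and at 7.68, 7.61 and 7.77 in CSN8ΔIEC, without overlap, and its difference of −0.50 missed the threshold (limma adjusted p = 0.0865). Under the 15 alternatives its adjusted p ranged from 0.0431 to 0.293, and it passed in 1 of them, with dim probe sets left out. The sources used here do not say whether its probes lie in the deleted part. The epithelial adhesion gene Epcam lay between 12.48 and 12.70 in all libraries. Crypt genes such as Mki67 (10.81 to 11.92) and Lgr5 (8.05 to 8.63) were present beside enterocyte genes such as Sis (12.94 to 13.53), so that the libraries held RNA of both.

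None of the 10 genes passed the threshold between genotypes, an adjusted p under 0.05 in limma's moderated test over all 19505 genes. The lowest adjusted p was that of Cldn2, at 0.198. Of all genes, 1.08% were called, which is 210 genes (0.374% higher and 0.702% lower in CSN8ΔIEC). Leaving out 1 library changed that count to 228, 109 and 151 for the CSN8fl/fl replicates in order. For the CSN8ΔIEC replicates it fell to 41, 122 and 114. At an unadjusted p under 0.05 the members counted 1 of 10, Cldn2, against 15.0% of all genes. The genotypes did not overlap in 3 of the 10, against 22.4% of all genes, so that the members were near the background. Cldn2 and Ocln were higher in CSN8ΔIEC, as were 10.7% of all genes, and Cldn15 lower, as were 11.7%. Differences, given throughout as CSN8ΔIEC minus CSN8fl/fl, were above 0 for 2 members and below 0 for 8, against 9396 and 10109 of all genes. The median of the members was −0.062, against −0.011 over all genes. The median size of a difference, without its sign, was 0.10 for the members and 0.15 for all genes.

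**Figure D1:**
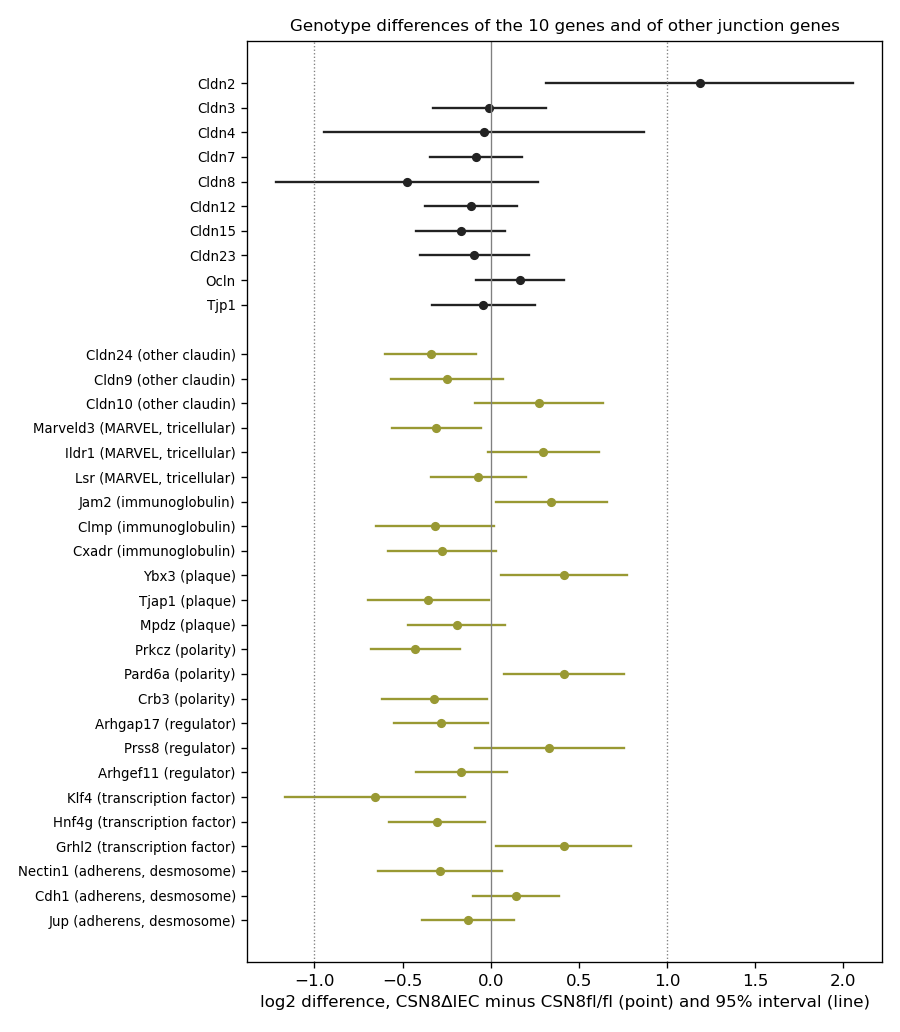
Log2 differences (CSN8ΔIEC minus CSN8fl/fl, horizontal axis) with 95% intervals from the limma fit, for the 10 genes (black) and for the 3 genes with the smallest p of each of 8 lists of other junction genes (olive). Dotted lines mark a 2-fold change; Cldn2 has the largest difference, at 1.18, and none of the genes drawn passed the threshold over all genes.

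Among the pore-forming claudins, Cldn2 had the largest difference of the members. Claudin-2 (NCBI gene ID 12738) makes a pore for small cations and water. In the order of the replicate numbers, as for every gene here, its CSN8fl/fl signals were 9.07, 8.64 and 7.35 and its CSN8ΔIEC signals 9.65, 9.18 and 9.79. All CSN8ΔIEC values lay above all CSN8fl/fl values, but the gap between 9.07 and 9.18 was small beside the spread of the CSN8fl/fl libraries, which covered 1.72 log2 units. The means were 8.36 ± 0.90 (SD, n = 3) and 9.54 ± 0.32 (SD, n = 3), and the difference of 1.18 ± 0.38 (SE), or 2.27-fold, did not pass over all genes (limma adjusted p = 0.198). Its interval before adjustment ran from 0.31 to 2.05. An exact permutation test of this gene alone gave p = 0.1, the smallest that 3 against 3 allows. Without CSN8fl/fl replicate 3 the difference was 0.68 ± 0.21, or 1.61-fold (limma adjusted p = 0.232), with no overlap. In bulk RNA, more or fewer cells that express a gene cannot be told apart from more or less RNA per cell.

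The window around the Cldn2 start site, chrX:139800558-139800857 on the plus strand of GRCm38.p6 (RefSeq), is shown because this gene had the largest difference and one of the widest spreads. It runs 5′ to 3′ from 250 bases before the start to 50 after it, with matches to the motifs searched in capitals.
Cldn2: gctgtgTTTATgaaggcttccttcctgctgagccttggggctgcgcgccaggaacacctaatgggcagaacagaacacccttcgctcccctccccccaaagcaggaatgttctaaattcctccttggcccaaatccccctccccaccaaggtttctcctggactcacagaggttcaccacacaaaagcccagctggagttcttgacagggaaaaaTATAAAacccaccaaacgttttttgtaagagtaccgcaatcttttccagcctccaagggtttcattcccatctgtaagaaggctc
The capitals are 1 match to the TATA box letters TATAAA, which starts 35 bases before the start site, and 2 to TTTAT, the core bound by the intestinal CDX factors. One of the TTTAT matches lies on the other strand within the TATA box match. Over all 32851 windows of this length in the table, 13.6% held TATAAA and 40.0% held TTTAT on either strand. Signals of the CDX genes themselves lay within narrow ranges, 10.65 to 10.89 for Cdx2 and 9.53 to 9.93 for Cdx1, with differences of 0.01 and −0.04 (limma adjusted p = 0.969 and 0.915).

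Claudin-15 (gene ID 60363), the other cation channel of the small intestinal epithelium, had one of the tightest sets of values. Cldn15 was at 12.48, 12.49 and 12.61 in CSN8fl/fl and at 12.37, 12.39 and 12.30 in CSN8ΔIEC. Each CSN8ΔIEC value was below each CSN8fl/fl value, by at least 0.09. The difference was −0.17 ± 0.11 (SE; limma adjusted p = 0.507), with an interval from −0.42 to 0.080. In linear terms that interval runs from 0.747 to 1.06 times the CSN8fl/fl level, so a 1.5-fold change in either direction lay outside it.

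The sealing claudins Cldn3 and Cldn4 are neighbours on chromosome 5, where the windows of their start sites lie 38.8 kb apart and on opposite strands. Cldn3 (gene ID 12739) had nearly the same mean in both genotypes. It was at 10.69, 11.004 and 10.54 in CSN8fl/fl and at 10.80, 10.73 and 10.69 in CSN8ΔIEC, and the CSN8ΔIEC values lay within the CSN8fl/fl range. The difference was −0.0082 ± 0.14 (SE; limma adjusted p = 0.984), with an interval from −0.33 to 0.31. Cldn4 (gene ID 12740) had a similar difference of −0.037, but a much wider interval, from −0.94 to 0.87. Its signal was 9.11, 9.27 and 10.85 in CSN8fl/fl and 9.53, 9.97 and 9.62 in CSN8ΔIEC. CSN8fl/fl thus held both the lowest Cldn4 values and, in replicate 3, by far the highest. The difference had an adjusted p of 0.973 in limma's test. Without CSN8fl/fl replicate 3 it turned to 0.52 ± 0.16, or 1.43-fold, with all 3 CSN8ΔIEC values above the 2 remaining CSN8fl/fl values, and did not pass (limma adjusted p = 0.230).

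The windows of both genes are shown because Cldn4 varied widely where Cldn3 did not. The Cldn4 window is chr5:134946885-134947184 on the minus strand and the Cldn3 window chr5:134985964-134986263 on the plus strand (GRCm38.p6, RefSeq), both 5′ to 3′ on the gene's own strand, with motif matches in capitals.
Cldn4: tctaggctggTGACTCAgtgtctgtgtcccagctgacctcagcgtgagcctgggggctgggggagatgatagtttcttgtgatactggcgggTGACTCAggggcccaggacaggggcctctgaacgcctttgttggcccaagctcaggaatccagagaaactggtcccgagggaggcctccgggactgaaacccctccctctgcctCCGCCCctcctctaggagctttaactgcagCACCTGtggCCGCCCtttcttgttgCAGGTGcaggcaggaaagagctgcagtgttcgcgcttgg
Cldn3: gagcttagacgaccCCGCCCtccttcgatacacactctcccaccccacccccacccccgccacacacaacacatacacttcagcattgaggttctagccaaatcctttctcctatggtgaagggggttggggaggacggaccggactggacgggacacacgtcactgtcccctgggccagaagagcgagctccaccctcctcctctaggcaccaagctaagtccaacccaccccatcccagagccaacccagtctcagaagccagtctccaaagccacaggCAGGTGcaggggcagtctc
The motifs matched in the Cldn4 window were the AP-1 letters TGANTCA, found in 7.81% of all windows on either strand. A further motif was the E-box CAGGTG bound by Snail-type repressors, found in 20.2%, and the last was the GC box GGGCGG, found in 35.7%. The Cldn4 window held 2 matches to each of these, and none of them overlapped. The Cldn3 window held 1 E-box, 1 GC box and no AP-1 match.

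Claudin-7 (gene ID 53624), found in the junction and along the basolateral membrane of gut epithelium, gave one of the narrowest intervals. Cldn7 was at 11.67, 11.63 and 11.51 in CSN8fl/fl and at 11.56, 11.59 and 11.42 in CSN8ΔIEC, with overlapping groups. The difference was −0.082 ± 0.12 (SE; limma adjusted p = 0.779) and its interval ran from −0.34 to 0.18. Epcam, the adhesion protein that stabilises claudin-7, differed by 0.01 (limma adjusted p = 0.969).

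Claudin-8 (gene ID 54420) is a sealing claudin of the distal gut and kidney. Cldn8 was at 6.85, 6.29 and 5.29 in CSN8fl/fl and at 5.74, 5.73 and 5.54 in CSN8ΔIEC. Its mean was below 6.74, the filter for dim probe sets, which only this member failed. The CSN8fl/fl values spread over 1.56 log2 units and lay on both sides of the CSN8ΔIEC values. With all libraries the difference was −0.47 ± 0.33 (SE; limma adjusted p = 0.532), with an interval from −1.22 to 0.27. Without CSN8fl/fl replicate 3 it was −0.90 ± 0.18, or 1.86-fold lower, with no overlap (limma adjusted p = 0.0866), and without CSN8fl/fl replicate 1 it was −0.12 (limma adjusted p = 0.856).

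Claudin-12 and claudin-23 are less studied claudins of the gut. Cldn12 (gene ID 64945) was at 8.66, 8.79 and 8.61 in CSN8fl/fl and at 8.65, 8.50 and 8.58 in CSN8ΔIEC. The groups overlapped, and the difference was −0.11 ± 0.12 (SE; limma adjusted p = 0.693). Cldn23 (gene ID 71908) was at 9.44, 9.34 and 9.17 in CSN8fl/fl and at 9.31, 9.34 and 9.02 in CSN8ΔIEC. Replicate 3 was the lowest Cldn23 value of each genotype, and the difference was −0.093 ± 0.14 (SE; limma adjusted p = 0.787).

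Occludin and ZO-1 were likewise close between genotypes. Ocln (gene ID 18260) was at 10.72, 10.76 and 10.74 in CSN8fl/fl and at 10.91, 10.98 and 10.82 in CSN8ΔIEC. Each CSN8ΔIEC value was above each CSN8fl/fl value, as with Cldn2, but the difference was only 0.16 ± 0.11 (SE), or 1.12-fold (limma adjusted p = 0.517), with an interval from −0.085 to 0.41. Tjp1 (gene ID 21872) was at 9.99, 9.95 and 10.20 in CSN8fl/fl and at 10.02, 10.13 and 9.86 in CSN8ΔIEC. The groups overlapped, and the difference was −0.042 ± 0.13 (SE; limma adjusted p = 0.904).

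**Figure D2:**
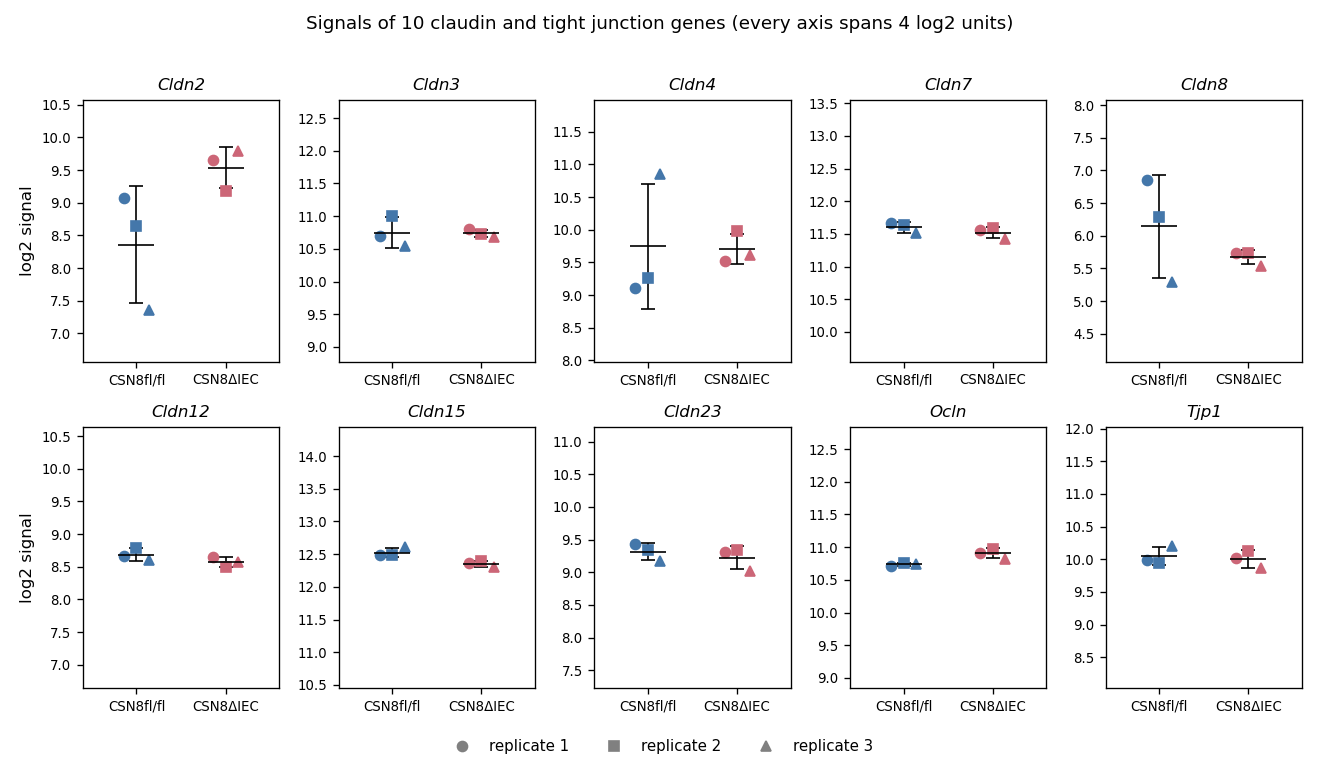
Log2 signal (vertical axis, 4 log2 units in every panel) of each gene in the 3 CSN8fl/fl (blue) and 3 CSN8ΔIEC (red) libraries, with the replicate as the symbol and the mean ± SD in black. CSN8fl/fl replicate 3 is the lowest library for Cldn2 and Cldn8 and the highest for Cldn4, while the other 7 genes lie close together.

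The unadjusted 95% intervals show how precisely the fit to these samples placed each difference. They rest on 3 samples per genotype, not known to be separate mice, so larger differences are not excluded. For 7 of the 10 genes (Cldn3, Cldn7, Cldn12, Cldn15, Cldn23, Ocln and Tjp1) the 95% interval lay within a 1.5-fold change in either direction, as it did for 68.0% of all genes. For Cldn4 it lay within a 2-fold change but not within 1.5-fold, and for Cldn2 and Cldn8 it reached past 2-fold. The wide intervals belong to the 3 genes whose CSN8fl/fl values spread over more than 1 log2 unit. The pooled SD within genotypes was 0.70 for Cldn4, 0.67 for Cldn2 and 0.56 for Cldn8, larger than in 99.5%, 99.4% and 98.9% of all genes. In CSN8ΔIEC the same genes had SDs of 0.24, 0.32 and 0.11. At the other end, the pooled SD was 0.056 for Ocln and 0.060 for Cldn15, larger than in only 2.60% and 3.20% of genes.

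CSN8fl/fl replicate 3 held the lowest or highest value of each of these 3 variable genes. Relative to the mean of the 6 libraries it lay at −1.60 for Cldn2, −0.62 for Cldn8 and 1.13 for Cldn4, and between −0.20 and 0.17 for the other 7 members. The same library was the lowest of the 6 for all 9 proliferation genes measured, with a median of −0.81 relative to the 6 libraries, beside 0.0093 in CSN8fl/fl replicate 1 and −0.031 in replicate 2. It was the lowest for 4 of 6 intestinal stem cell markers and the highest for 10 of 14 enterocyte markers and all 6 tuft cell markers. Of 9 lymphocyte markers it was the highest for 5 and the lowest for 2. CSN8ΔIEC replicate 2 was the highest for the other 4 enterocyte markers. The median deviation of the enterocyte markers was 0.23 in that library and 0.31 in CSN8fl/fl replicate 3. The mean log2 signal of the proliferation genes was 9.12 to 9.87 in CSN8fl/fl and 10.09 to 10.11 in CSN8ΔIEC, that of the enterocyte markers 12.62 to 13.03 and 12.46 to 12.88, and that of the tuft cell markers 8.02 to 9.62 and 6.34 to 6.62. M cell markers, among them Spib, had means of 6.88 to 7.30 and 6.43 to 6.63. The part of these cell types in the claudin values was not tested. CSN8fl/fl replicate 3 was singled out after its values for these genes were seen, so counts without it are no test of the members. Without this library, 8 of the 10 members had groups that did not overlap, all but Cldn3 and Tjp1, against 31.8% of all genes. Of these 8, Cldn2, Cldn4 and Ocln were higher in CSN8ΔIEC and Cldn7, Cldn8, Cldn12, Cldn15 and Cldn23 lower. The unadjusted intervals of Cldn7, Cldn12, Cldn15, Cldn23 and Ocln spanned 0, from −0.40 to 0.14 for Cldn7. None of the 10 then passed the threshold, which 0.774% of all genes did.

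**Figure D3:**
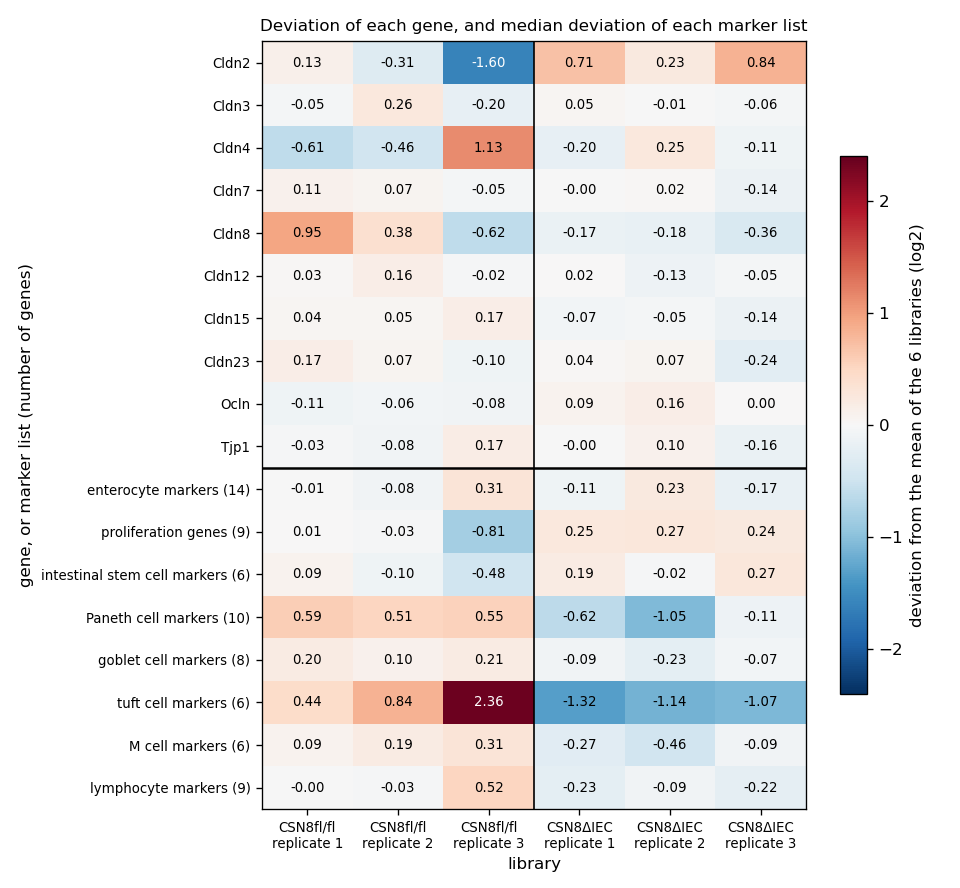
Deviation of each of the 10 genes from its mean over the 6 libraries (upper rows), and the median deviation over the genes of each marker list (lower rows, number of genes in brackets), in log2 units, with 1 column per library. In CSN8fl/fl replicate 3, Cldn2 (−1.60) and the proliferation genes (−0.81) are low, and Cldn4 (1.13) and the tuft cell markers (2.36) are high.

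With each library left out in turn, no member passed the threshold. Cldn2 kept a difference above 0 in all 6 cases, between 0.68 and 1.54, with limma adjusted p-values from 0.0879 upwards. Cldn8 kept one below 0, between −0.90 and −0.12. Cldn7, Cldn12 and Cldn15 also stayed below 0 and Ocln above 0, whereas Cldn3, Cldn4, Cldn23 and Tjp1 changed sign. Only the difference of Cldn4 became larger than 0.15 after a change of sign, without CSN8fl/fl replicate 3.

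**Figure D4:**
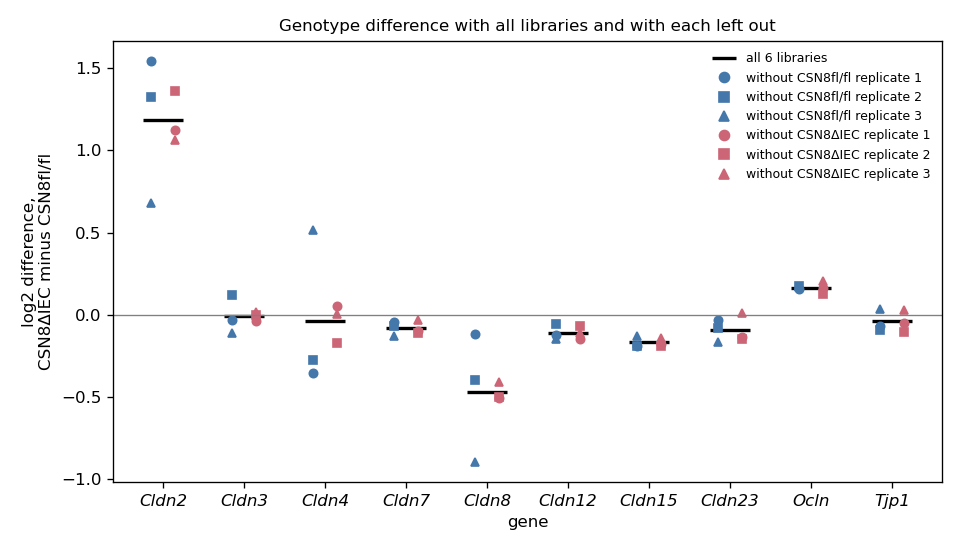
Log2 difference (CSN8ΔIEC minus CSN8fl/fl, vertical axis) of each gene with all 6 libraries (black bar) and with each library left out (symbols, blue for a CSN8fl/fl and red for a CSN8ΔIEC library). Leaving out CSN8fl/fl replicate 3 lowers the Cldn2 difference to 0.68, takes Cldn8 to −0.90 and moves Cldn4 to 0.52.

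For the variable claudins, replicate 3 stood differently to replicates 1 and 2 in the genotypes. Cldn2 differed by −1.505 between CSN8fl/fl replicate 3 and the mean of replicates 1 and 2, and by 0.37 in CSN8ΔIEC. Cldn4 differed by 1.66 in CSN8fl/fl and by −0.13 in CSN8ΔIEC. Cldn8 differed by −1.28 and −0.19. The interaction of genotype with labelled sex and age was 1.87 ± 0.38 (SE) for Cldn2, −1.79 ± 0.32 for Cldn4 and 1.09 ± 0.35 for Cldn8, and none passed over all genes (limma adjusted p = 0.421, 0.365 and 0.434). No gene of the 19505 passed for the interaction in limma, and 10.1% had an unadjusted p under 0.05. With replicate 3 alone carrying the male label in a genotype, that model took its spread from replicates 1 and 2. In the model without the interaction, Cldn8 had the smallest p of the members for labelled sex and age, with a difference of −0.74 ± 0.26 (limma adjusted p = 0.778). Over all genes 0.0154% passed for labelled sex and age and 6.16% had an unadjusted p under 0.05, as 1 of the 10 members, Cldn8, did. Among replicates 1 and 2 only, the genotype differences were 0.56 for Cldn2, 0.56 for Cldn4 and −0.84 for Cldn8 (limma adjusted p = 0.443, 0.361 and 0.230). In replicate 3, with 1 library per genotype and no test, they were 2.43, −1.23 and 0.25.

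The genes most like Cldn2 over the 6 libraries, by the root mean square distance between values centred on each gene's mean, were Cd177, Klf12, 1810065E05Rik, Tlr1 and Nepro, at distances of 0.15 to 0.26 log2 units. Cd177, a surface glycoprotein best known from neutrophils, was at 8.32, 8.04 and 6.83 in CSN8fl/fl and at 8.97, 8.85 and 9.002 in CSN8ΔIEC, with a difference of 1.21 (limma adjusted p = 0.135). As with Cldn2, its lowest value was in CSN8fl/fl replicate 3. The nearest genes to Cldn15 were Tmem30a, Capn1, Vmn2r6, Chst13 and Slc66a2, at 0.0088 to 0.025. Those of Ocln were Cntnap3, Aco1, Mycbp, Cdh1 and Hps4, at 0.023 to 0.032. None of these 15 genes passed the threshold between genotypes, with limma adjusted p-values from 0.0823 for Tlr1 to 0.686 for Hps4. E-cadherin, encoded by Cdh1, holds epithelial cells together below the tight junction. Cdh1 was at 13.12, 13.12 and 13.16 in CSN8fl/fl and at 13.27, 13.32 and 13.24 in CSN8ΔIEC, the same order of genotypes as Ocln. All 15 genes were chosen for closeness to a member over these same libraries, so their likeness to that member follows from the choice.

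The other junction genes did not pass the threshold either. Of 89 measured in 8 lists, 0 rose and 0 fell in limma's test over all genes, 12 had an unadjusted p under 0.05 and 22 had groups that did not overlap, against 15.0% and 22.4% of all genes. Of the 22, 5 were higher and 17 lower in CSN8ΔIEC, beside 10.7% and 11.7% of all genes. Differences of the 89 were above 0 for 31 genes and below 0 for 58, against 9396 and 10109 of all genes. The median over the 89 was −0.054, against −0.011 over all genes. The 15 other claudins all had mean signals below 6.74, the filter for dim probe sets, which 62 of the 89 genes passed. Their small differences are therefore those of dim signals. They ran from −0.34 to 0.27, and Cldn24 had the smallest p, with 6.68, 6.70 and 6.82 in CSN8fl/fl against 6.43, 6.45 and 6.30 in CSN8ΔIEC (limma adjusted p = 0.213). Among MARVEL and tricellular proteins, Marveld3, a relative of occludin, differed by −0.31 without overlap (limma adjusted p = 0.243), Ildr1 by 0.30 and Lsr, an organiser of tricellular contacts, by −0.071. Among the immunoglobulin proteins, Jam2 differed by 0.34, Clmp by −0.32 and Cxadr, the coxsackievirus and adenovirus receptor, by −0.28, with limma adjusted p-values from 0.289 to 0.385. Jam2 and Clmp were below the dim filter too.

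Of the plaque proteins, which bind the strands from within the cell, Ybx3, a transcription factor that binds ZO-1, differed by 0.42, Tjap1 by −0.35 and Mpdz by −0.19 (limma adjusted p = 0.269, 0.317 and 0.494). Without CSN8fl/fl replicate 3 the difference was 0.27 for Ybx3 and −0.21 for Tjap1. The polarity complexes held the lowest adjusted p of these lists. Prkcz, an atypical protein kinase C of the Par complex, was at 10.21, 10.25 and 10.37 in CSN8fl/fl and at 9.80, 9.86 and 9.89 in CSN8ΔIEC. The groups did not overlap, and the difference of −0.43 ± 0.11 (SE) did not pass (limma adjusted p = 0.125). Its partner Pard6a differed by 0.42 and the apical protein Crb3 by −0.32 (limma adjusted p = 0.250 and 0.299). Mpdz and Pard6a were also below the dim filter. Among the regulators, Arhgap17 differed by −0.28, the membrane protease Prss8 by 0.33 and Arhgef11 by −0.17. Of the transcription factors linked to claudin genes, Klf4, a factor of differentiated epithelium, differed by −0.66, Grhl2 by 0.41 and Hnf4g by −0.30 (limma adjusted p = 0.223, 0.295 and 0.283). With 1 library left out, Klf4 lay between −0.85 and −0.43, nearest 0 without CSN8ΔIEC replicate 3. The 15 genes of adherens junctions and desmosomes had the smallest typical size of difference, a median of 0.038 without sign, with Nectin1 at −0.29, Cdh1 at 0.14 and Jup at −0.13.

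The same test called larger changes in other crypt genes. Of the Paneth cell markers 5 of 10 fell in CSN8ΔIEC and of the tuft cell markers 3 of 6, beside 0.702% of all genes. The median differences over these lists were −1.05 and −2.49. The Paneth count was 3 without CSN8fl/fl replicate 2 or replicate 3 and 2 without CSN8ΔIEC replicate 1, and otherwise 4 to 7 with 1 library left out. The tuft count was 0 without CSN8ΔIEC replicate 1, 1 without CSN8ΔIEC replicate 2, and otherwise 2 to 4. Proliferation genes had 0 of 9 past the threshold and enterocyte markers 0 of 14, beside 1.08% of all genes. Under the alternatives, 1 proliferation gene rose with dim probe sets left out, with a trended prior variance and without CSN8fl/fl replicate 1. With dim probe sets left out, with a trended prior variance and without CSN8ΔIEC replicate 2, 1 enterocyte marker fell. For 7 of the 9 proliferation genes the groups did not overlap, beside 22.4% of all genes.

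Start site windows were found for 8 of the 10 genes, 12 windows in all. Cldn8 and Cldn23 had none in the table. The antioxidant response element letters TGACNNNGC, found in 12.4% of all windows on either strand, matched only in the Cldn15 window among those of the members, overlapping there a match to TGANTCA. The STAT letters TTCNNNGAA (8.30% of all windows) matched in windows of Cldn7 and Cldn12. GTTAAT, a short HNF1 motif found in 7.10% of all windows, occurred in none of the 12. The same was true of the TCF and LEF letters CTTTGAT, found in 3.73% of all windows. CAAAGT, a short HNF4 motif, occurred in 1 of the 3 overlapping windows of Cldn12 and in 14.4% of all windows.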

How the data were processed

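The deposited values are log2 signals of 22206 probe sets in 6 samples, 1 array each. Per the submitters' processing notes, the authors used RMA and Partek 6.6. The sources used here give neither their settings nor the build behind the array annotation. RMA corrects background array by array and then sets all arrays to the same quantiles, to remove shifts common to a whole array. Medians of the deposited values still ran from 6.75 to 6.76 in CSN8fl/fl and from 6.70 to 6.74 in CSN8ΔIEC. Platform symbols named 19572 probe sets, and 2634 are unnamed here. For 55 genes with several probe sets the one with the highest mean was used. Genotypes were compared with limma 3.58.1 in R 4.3.3 (lmFit, eBayes, 8.85 degrees of freedom), with Benjamini-Hochberg adjustment over 19505 genes at 0.05. Intervals are limma's 95% intervals, unadjusted. The script was tested on simulated data. Arrays have no read depth; their number limits the precision.

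Members and lists were chosen with earlier results of these data known. Besides the members, named genes were the up to 3 with the smallest p of each junction list, and the 5 nearest genes of the 3 members with the smallest p; Eif2s3y, Kdm5d, Uty, Cdx1, Cdx2, Epcam, Mki67, Lgr5, Sis, Spib and the motifs were chosen after the values were seen. Of 96 listed junction genes, 89 were measured, 1 through a synonym, and 7 were not analysed here. Windows came from a RefSeq table (GRCm38.p6) and were searched on both strands. The 15 alternatives were a replicate block, labelled sex and age as a covariate or only the labelled females, median centring, repeated quantile normalization, a filter on dim probe sets, averaged probe sets, trended or robust prior variance, and each library left out.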

Additional observations from a re-analysis of the deposited data

How the results depend on the processing

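No member, and none of the 89 other junction genes, passed the threshold under any alternative in which it was tested. There were 15, but the dim filter removed Cldn8 and left 62 of the 89. Over all genes, 73 rose and 137 fell. With a trended prior variance 114 rose and 210 fell, and with only the libraries labelled female 21 rose and 76 fell. With 1 library left out, 16 to 88 rose and 25 to 140 fell, fewest without CSN8ΔIEC replicate 1. Deviations of same-numbered libraries from their genotype means had correlations of 0.12, −0.024 and 0.038 for numbers 1 to 3. With 3 libraries per genotype, these values cannot decide whether the numbers pair the samples. With the replicate block 69 rose and 133 fell, and Cldn2 had an adjusted p of 0.205 in limma. Differences turned their sign only for members whose difference with all libraries was near 0, among them Cldn4 with its wide interval. With only the libraries labelled female, Cldn4 was at 0.56 and Tjp1 at 0.11, and Cldn3 was at 0.024 after median centring and at 0.0093 after repeated quantile normalization. Leaving out 1 library gave −0.11 to 0.12 for Cldn3, −0.35 to 0.52 for Cldn4, −0.17 to 0.0067 for Cldn23 and −0.11 to 0.034 for Tjp1. The difference between replicate 3 and replicates 1 and 2 within CSN8fl/fl and within CSN8ΔIEC was −1.505 and 0.37 for Cldn2, 1.66 and −0.13 for Cldn4, 0.12 and −0.081 for Cldn15, 0.0088 and −0.12 for Ocln, and 0.23 and −0.21 for Tjp1; beyond the values given here, the cause was not tested. The number of arrays, the same for all members, limits the precision. Intervals were widest for Cldn2, Cldn4 and Cldn8, whose CSN8fl/fl values spread most. Cldn8 was also dim, and the part of its dim signal in the precision was not tested.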
